A study of Mus musculus with 6 samples.

Results

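The genes described here encode the machinery of MHC class I antigen presentation. They were taken by symbol, with earlier results of these data known, as H2-K1, H2-D1, B2m, Tap1, Tap2, Tapbp, Psmb8, Psmb9, Psmb10 and Nlrc5. All 10 were found among the 23282 genes of the table, each once, and all 10 had enough counts to be tested. Primary hepatocytes were isolated by collagenase perfusion from livers of C57BL/6N mice, left in culture for 3 h, and then given fresh medium for 24 h. The 3 control samples received no treatment in this time, and the 3 IL-1β samples received recombinant protein. No allele or other agent distinguished the groups, and the labels give neither the dose of IL-1β nor the sex and age of the animals. The design text speaks of 2 samples per group but names 3, and all 3 were used. Whether the 3 samples of a group came from separate mice is not stated, so the p-values below measure only the spread between these samples, which may be technical.

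Class I molecules show peptides from inside the cell to CD8 T cells. The proteasome cuts proteins into peptides, the TAP transporter carries the peptides into the endoplasmic reticulum, and tapasin holds an empty class I heavy chain beside TAP until a peptide is bound and the complex with B2m can leave for the cell surface. Interferons are the best known inducers of the whole pathway, acting through factors such as IRF1 and the transactivator NLRC5, and NF-κB is known to act at the promoters of the classical heavy chains. Hepatocytes carry class I molecules at low density compared with most immune cells. The comparison of IL-1β with control asks how hepatocytes respond to this cytokine, which signals through NF-κB.

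Of the 10 genes, 7 lie on chromosome 17 of GRCm38, in or near the major histocompatibility complex. The remaining 3 are B2m on chromosome 2 and Psmb10 and Nlrc5 on chromosome 8. Upstream sequences were taken from RefSeq (GRCm38.p6) as the 250 bases before each gene's start. Entries were matched by gene identifier for 8 of the 10 genes, all but Tap2 and Nlrc5. The sequences below are shown because they hold the motifs that the later values can be read beside. They run 5′ to 3′ on the strand of the gene (for the last, the plus strand), and capitals mark the matches.
H2-K1, chr17:34000334-34000583, minus strand: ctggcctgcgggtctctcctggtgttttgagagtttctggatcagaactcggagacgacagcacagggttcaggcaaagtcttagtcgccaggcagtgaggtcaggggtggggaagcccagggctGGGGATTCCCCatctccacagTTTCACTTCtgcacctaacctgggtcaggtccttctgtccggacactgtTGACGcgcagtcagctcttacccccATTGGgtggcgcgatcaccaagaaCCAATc
H2-D1, chr17:35262844-35263093, plus strand: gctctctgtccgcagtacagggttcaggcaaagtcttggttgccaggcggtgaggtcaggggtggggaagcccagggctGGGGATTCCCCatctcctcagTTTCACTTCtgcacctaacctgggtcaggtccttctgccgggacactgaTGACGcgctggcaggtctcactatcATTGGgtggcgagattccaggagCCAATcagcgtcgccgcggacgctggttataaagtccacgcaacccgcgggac
B2m, chr2:122147437-122147686, plus strand: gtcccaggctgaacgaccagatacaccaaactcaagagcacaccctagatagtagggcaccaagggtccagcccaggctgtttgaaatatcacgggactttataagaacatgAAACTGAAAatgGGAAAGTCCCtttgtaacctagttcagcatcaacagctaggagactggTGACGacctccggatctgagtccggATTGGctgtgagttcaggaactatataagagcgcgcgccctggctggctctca
Psmb9 to Tap1, chr17:34187331-34187555, plus strand: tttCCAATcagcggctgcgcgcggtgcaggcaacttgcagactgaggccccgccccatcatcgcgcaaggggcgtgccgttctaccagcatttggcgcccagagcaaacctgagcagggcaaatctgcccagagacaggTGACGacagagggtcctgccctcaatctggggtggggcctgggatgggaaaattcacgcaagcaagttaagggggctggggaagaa

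The last sequence is the whole stretch of 225 bp between Psmb9, which reads to the left, and Tap1, which reads to the right, so that it is the upstream region of both genes. Motifs were searched on both strands, with position -1 as the last base before the gene's start. The class I kB element, searched as GGGGATTCC, was found in 2 of the 8 windows, at -125 to -117 in H2-K1 and at -171 to -163 in H2-D1, and in 0.213% of the 32851 windows of the RefSeq table. The element is named for class I genes, so its presence in these 2 windows is not a test of enrichment. The degenerate NF-κB consensus overlapped the element in both genes, was also found at -126 to -117 in B2m, and is held by 7.25% of all windows. An interferon-stimulated response element written as TTTCNNTTC followed the kB element in H2-K1 and H2-D1 (6.31% of all windows), and one written as TTTCNNTTT stood beside the NF-κB match of B2m (9.37% of all windows). The letters TGACG, part of the site that CREB-type factors bind, were found in H2-K1, H2-D1, B2m and the Psmb9 to Tap1 stretch (17.8% of all windows), and CCAAT was found in these and in Tapbp (33.8% of all windows). The windows of Psmb8 and Psmb10 held none of the 6 motifs. Over the bases that could be aligned, 180 of 203 (88.7%) were identical between the H2-K1 and H2-D1 windows. A match describes letters only and does not show that a factor was bound.

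Expression was measured by QuantSeq 3′ mRNA-Seq, which reads 75 nt near the 3′ end of each mRNA. The control libraries held 9566434 to 11105408 counts and the IL-1β libraries 9538741 to 11037083, and 3 counts, taken as the lower limit of detection, correspond to 0.268 to 0.32 CPM (counts per unit of TMM-adjusted library size). The 10 genes were far above this limit, with 178 counts (Psmb9) to 72121 counts (B2m) in a library. Hepatocyte markers summed to between 32322 and 33167 CPM in control and between 27179 and 29351 CPM in IL-1β samples, and 7 of the 9 tested were lower after IL-1β. Without Alb they summed to between 16611 and 16749 CPM in control and between 13717 and 14756 CPM in IL-1β samples. On the same list, Ass1 and Pck1 were at 1.22 CPM or less in every sample and were not tested, and Cps1 was at 3.22 CPM or less. Kupffer cell and macrophage markers, which matter here because such cells carry class I molecules at high density, summed to between 212 and 242 CPM in control and between 215 and 245 CPM in IL-1β samples, most of it Cd68, and without Cd68 to between 36.6 and 39.6 CPM in control and between 37.6 and 46.6 CPM in IL-1β samples. Of the 9 tested, 0 passed edgeR's test (2 at an unadjusted p below 0.05), while 7 had log2 fold changes above 0, with a median of 0.31. Endothelial markers summed to between 85.1 and 94.2 CPM in control and between 83.8 and 89.6 CPM in IL-1β samples, and of 10 tested, Lyve1 was higher (log2 fold change 0.45) and Clec4g and Kdr were lower (-2.874 and -1.490). Cholangiocyte markers summed to between 315 and 329 CPM in control and between 236 and 239 CPM in IL-1β samples, with Spp1 lower (-1.199), Sox9 at 0.21 (adjusted p = 0.0518), and Krt7, Krt19, Epcam and Cftr at or near 0 in both groups. T and NK cell markers summed to at most 0.705 CPM in any sample, and Cd3e, Cd3g, Cd8a, Ncr1, Klrb1c, Gzma and Prf1 were at 0 in all 6. Neutrophil markers rose from at most 0.179 CPM to between 2.24 and 4.83 CPM, nearly all of it S100a8, while Elane, Mpo, Retnlg and S100a9 were at 0. The part of these cells in the results below was not tested. In bulk samples such as these, fewer cells of a type and less RNA per cell cannot be told apart.

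Single libraries of both groups deviated for these genes. IL-1β replicate 3 was the highest of its group for 6 of the 10 genes, against 33.1% of all tested genes. IL-1β replicate 2 was the lowest of its group for 7, with a median deviation of -0.085 on the log2 scale, beside 0.002 for all tested genes. The largest deviation of a single gene, 0.544 for Tap2, was in control replicate 1. Control replicate 1 was the highest control sample for 6 of the 10 genes, against 34.8% of all tested genes. Its ratio to the mean of the other 2 controls was 1.46 for Tap2, 1.45 for Psmb8, 1.28 for Tap1, 1.26 for Tapbp and 1.11 for H2-K1 and B2m. For H2-D1, Nlrc5, Psmb10 and Psmb9 its ratio to the other controls was between 0.899 and 0.992. The summed macrophage markers were lower in this library (212 CPM) than in control replicates 2 and 3 (242 and 237 CPM), a difference that Cd68 carried. Without Cd68 they were slightly higher (39.6 CPM, beside 38.4 and 36.6 CPM), and its endothelial markers were 85.1 CPM beside 85.8 and 94.2 CPM. The changes of the 10 genes are given with and without it. Control replicate 1 was picked out from the values of these same genes. Leaving it out raises by construction the change of each gene for which it was the highest control. Those refits are therefore no separate support for a rise.

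After IL-1β, 3 of the 10 genes were higher at an adjusted p below 0.05 from edgeR's quasi-likelihood test, namely H2-D1, Tap2 and Psmb9, and 0 were lower (0 at an unadjusted p below 0.05, and 0 with DESeq2 or limma). Over all 11657 tested genes, 13.4% passed this test, 6.97% in the higher and 6.44% in the lower direction. The split of all calls depends on the scaling, with 52.0% of them higher after TMM scaling, 45.3% after upper-quartile scaling and 39.7% with total counts alone. For 2 of the 10 genes, H2-D1 and Psmb9, no IL-1β sample fell within the range of the controls and all were higher, beside separate groups in 28.2% of all tested genes, 14% in the higher direction. At an unadjusted p below 0.05 there were 6 of the 10 genes, beside 23.6% of all tested genes. All 10 log2 fold changes were above 0, beside 49.6% of all tested genes, although with total counts alone B2m was at -0.022. Their median was 0.17, beside -0.002 for all tested genes, whose 25th and 75th percentiles were -0.171 and 0.155. None of the 10 changes was large. The greatest, of Psmb9, was a 1.35-fold rise.

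**Figure D1:**
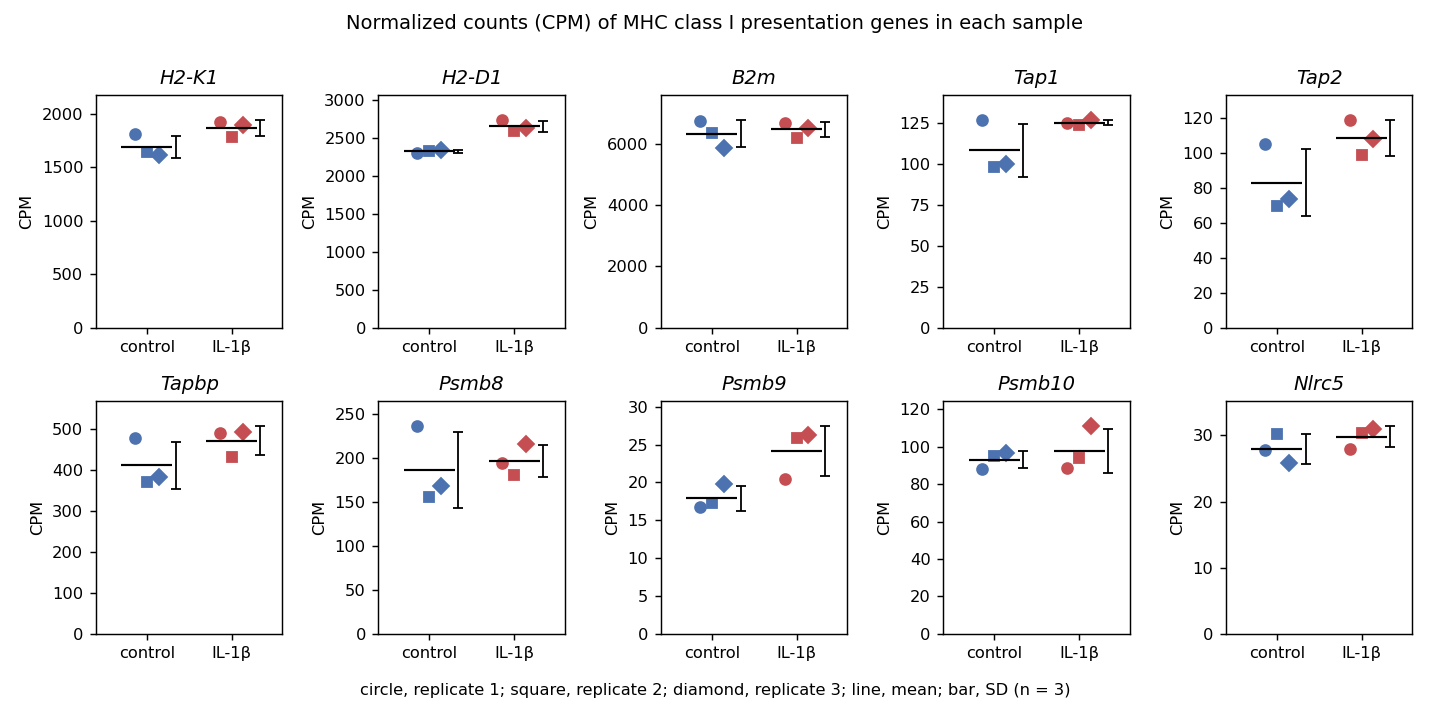
Normalized counts (CPM, linear axis from 0) of the 10 genes in each sample, control in blue and IL-1β in red, with the mean as a line and the SD as a bar (n = 3). The samples of the groups are separate for H2-D1 and Psmb9, and control replicate 1 (blue circle) lies close to the IL-1β samples for Tap1, Tap2 and Tapbp and above them for Psmb8.

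The classical heavy chains H2-K1 and H2-D1 pair with the light chain B2m, and all 3 were among the well expressed mRNAs of these cells. H2-D1 lies on the plus strand of chromosome 17 from 35263094 to 35267497. Its level was 2296, 2328 and 2341 CPM in the control samples and 2734, 2594 and 2629 CPM in the IL-1β samples. Every IL-1β sample was above every control. Such separation fixes p at 0.1 in a two-sided exact permutation test, the lowest value with 3 against 3. This p is therefore no further support. The controls lay closer together than for any other of the 10 genes relative to their level. H2-D1 rose by 0.19 on the log2 scale, which is 1.14-fold (standard error 0.055, 95% interval 0.079 to 0.305, adjusted p = 0.0188). Without control replicate 1 it was 0.18 (adjusted p = 0.0193). The call was lost when control replicate 2 was left out (0.20, adjusted p = 0.0619), when IL-1β replicate 1 was (0.18, adjusted p = 0.083) and with total counts alone (0.14, adjusted p = 0.126). The table also lists H2-L on the same strand within this interval, with 0 to 8 counts in a library.

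H2-K1 lies on the minus strand of chromosome 17 from 33996012 to 34000333. Its level was 1810, 1646 and 1610 CPM in control and 1921, 1782 and 1896 CPM in IL-1β samples. The groups overlapped through control replicate 1, which exceeded IL-1β replicate 2. Its change of 0.14 on the log2 scale (standard error 0.060, 95% interval 0.020 to 0.269) did not pass the test (adjusted p = 0.131). Without control replicate 1 it was 0.20 and passed (adjusted p = 0.0146). With any other single sample left out, H2-K1 did not pass (0.109 to 0.181, adjusted p of 0.125 to 0.359).

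B2m lies on the plus strand of chromosome 2, outside the histocompatibility complex, from 122147687 to 122153082. Its level was 6769, 6371 and 5877 CPM in control and 6685, 6213 and 6537 CPM in IL-1β samples, and the control samples spanned the whole range of the IL-1β samples. B2m had a log2 fold change of 0.031 (standard error 0.059, 95% interval -0.090 to 0.152, adjusted p = 0.821). On the linear scale this interval runs from 0.94-fold to 1.11-fold. The change was 0.081 without control replicate 1 (adjusted p = 0.404). The light chain did not pass the test under any of the 13 alternatives. Patl2 overlaps B2m on the other strand and had at most 1 count in a library.

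The changes of the 2 heavy chains, whose upstream sequences are printed above, had intervals that overlapped over most of their length. Within the final 500 nt of their GENCODE transcripts, 0 of 426 windows of 75 nt from H2-K1 or H2-D1 occurred in a transcript of another gene, so that error-free reads of this length in this stretch tell the 2 heavy chains apart. The same count was 0 for each of the other 8 genes. Only exact matches were counted. H2-L, H2-Q9 and H2-T9 had no transcript under these symbols, so sharing with them could not be checked.

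Tap1 and Tap2 together form the peptide transporter, and Tapbp makes tapasin, which links it to the empty heavy chain. Tap2 lies on the plus strand of chromosome 17 from 34204479 to 34216321. Its level was 105, 70 and 73.9 CPM in control and 119, 98.7 and 108 CPM in IL-1β samples. Control replicate 1 lay above IL-1β replicate 2, and the other controls were below all IL-1β samples. Tap2 rose by 0.38 on the log2 scale, which is 1.3-fold (standard error 0.112, 95% interval 0.150 to 0.614, adjusted p = 0.0227). Without control replicate 1 the rise was 0.59 (adjusted p = 1.78e-06), the largest among the 10 genes in that fit, and with any of 4 other single samples left out the call was lost, with changes of 0.27 (control replicate 2, adjusted p = 0.163), 0.30 (control replicate 3, 0.114), 0.32 (IL-1β replicate 1, 0.155) and 0.39 (IL-1β replicate 3, 0.0875).

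Tap1 lies on the plus strand of chromosome 17 from 34187556 to 34197225. Its level was 127, 98.5 and 99.9 CPM in control and 125, 124 and 127 CPM in IL-1β samples. The IL-1β samples were almost equal, and control replicate 1 sat among them. The change of Tap1 was 0.21 on the log2 scale (standard error 0.087, 95% interval 0.028 to 0.388, adjusted p = 0.133), and without control replicate 1 it was 0.34 (adjusted p = 0.00204). With any other single sample left out, Tap1 did not pass (0.146 to 0.219, adjusted p of 0.23 to 0.424).

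Tapbp lies on the plus strand of chromosome 17 from 33919478 to 33929290, with a level of 477, 371 and 383 CPM in control and 490, 430 and 492 CPM in IL-1β samples. It showed the same arrangement, with control replicate 1 between the IL-1β samples and the other controls below them. Tapbp had a log2 fold change of 0.20 (standard error 0.080, 95% interval 0.031 to 0.363, adjusted p = 0.122), and without control replicate 1 it was 0.32 (adjusted p = 0.000494). With any other single sample left out, Tapbp did not pass (0.132 to 0.261, adjusted p of 0.0813 to 0.438). With all 6 samples, the 3 genes of peptide transport and loading had changes between 0.20 and 0.38. Each was at an unadjusted p below 0.05 (23.6% of all tested genes), and 1 passed after adjustment over all genes.

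The immunoproteasome replaces the catalytic subunits of the constitutive 20S core, with Psmb8 in the place of Psmb5, Psmb9 in that of Psmb6 and Psmb10 in that of Psmb7. Psmb9 lies on the minus strand of chromosome 17 from 34182099 to 34187330, next to Tap1. Its level was 16.7, 17.3 and 19.8 CPM in control and 20.4, 25.9 and 26.2 CPM in IL-1β samples. The groups were separate (which fixes p at 0.1, two-sided, exact permutation), but IL-1β replicate 1 was only just above control replicate 3. Psmb9 rose by 0.43 on the log2 scale, which is 1.35-fold (standard error 0.14, 95% interval 0.143 to 0.720, adjusted p = 0.0402), from 178 to 197 counts in the control libraries and 191 to 282 in the IL-1β libraries. Of the 3 calls this one depended most on the settings, passing in 5 of 13 alternatives, and its adjusted p was 0.0867 with DESeq2, 0.0525 with limma and 0.0901 without control replicate 1 (log2 fold change 0.38). The call was also lost with control replicate 2 (0.41, adjusted p = 0.112), IL-1β replicate 2 (0.38, 0.161) or IL-1β replicate 3 (0.37, 0.177) left out.

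Psmb8 lies on the plus strand of chromosome 17 from 34198195 to 34201454, between Tap1 and Tap2. Its level was 236, 156 and 168 CPM in control and 194, 180 and 216 CPM in IL-1β samples. The highest and the lowest of the 6 values were both controls. The log2 fold change was 0.075 (standard error 0.106, 95% interval -0.143 to 0.293, adjusted p = 0.747). Without control replicate 1 it was 0.28 and passed (adjusted p = 0.00977), and without control replicate 2 it was -0.035 (adjusted p = 0.907), so that the direction of Psmb8 rests on single control samples.

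Psmb10 lies on the minus strand of chromosome 8 from 105935728 to 105938392. Its level was 87.9, 94.8 and 96.6 CPM in control and 88.5, 93.8 and 111 CPM in IL-1β samples, and IL-1β replicate 3 alone stood above the controls. Psmb10 had a log2 fold change of 0.072 (standard error 0.088, 95% interval -0.109 to 0.253, adjusted p = 0.7), and without that sample it was -0.026 (adjusted p = 0.925). Without control replicate 1 it was 0.033 (adjusted p = 0.886).

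The exchange of subunits was also followed as the ratio of each inducible to its constitutive counterpart within a sample, in which the scaling between libraries cancels. A read near the 3′ end is counted per mRNA and not per length. Only differences between groups are read from these ratios. Psmb9/Psmb6 was 0.086, 0.0846 and 0.0956 in control and 0.0946, 0.124 and 0.119 in IL-1β samples. IL-1β replicate 1 fell among the controls, and the difference of 0.34 on the log2 scale did not pass an exact permutation test (two-sided p = 0.2, adjusted over the 3 ratios 0.45). Psmb8/Psmb5 was 0.729, 0.62 and 0.662 in control and 0.628, 0.705 and 0.771 in IL-1β samples, a difference of 0.063 (exact permutation test, p = 0.6, adjusted 0.6). Psmb10/Psmb7 was 0.362, 0.389 and 0.373 in control and 0.315, 0.346 and 0.379 in IL-1β samples, a difference of -0.117 (exact permutation test, p = 0.3, adjusted 0.45). The smallest p that these tests can give is 0.1. Without control replicate 1 the differences were 0.31, 0.125 and -0.141 in the same order. The constitutive counterparts had log2 fold changes of 0.025 (Psmb5, adjusted p = 0.912), 0.087 (Psmb6, adjusted p = 0.488) and 0.18 (Psmb7, adjusted p = 0.0706).

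**Figure D2:**
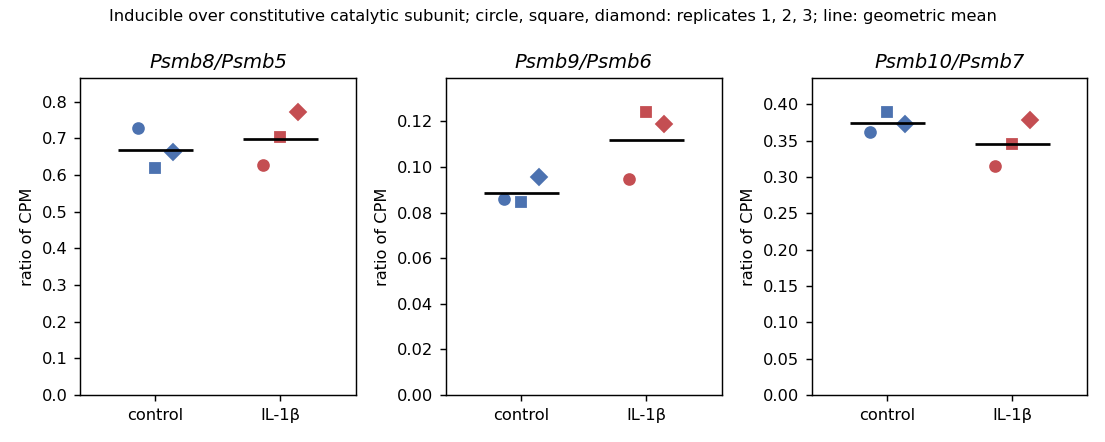
Ratio of the normalized counts of each inducible catalytic subunit to its constitutive counterpart (linear axes from 0), 1 point per sample, with the geometric mean of each group as a line. Groups overlap in all 3 panels, and the widest gap between group means, 0.34 on the log2 scale, is that of Psmb9/Psmb6.

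NLRC5 enters the nucleus and drives transcription of class I heavy chains, B2m, Tap1 and Psmb9. Nlrc5 lies on the plus strand of chromosome 8 from 94472763 to 94527272. Its level was 27.8, 30.2 and 25.8 CPM in control and 28, 30.4 and 31 CPM in IL-1β samples. Control replicate 2 lay between the IL-1β samples, and the other controls were below them. The log2 fold change was 0.094 (standard error 0.116, 95% interval -0.147 to 0.334, adjusted p = 0.707), and it was 0.089 without control replicate 1 (adjusted p = 0.764). Nlrc5 passed in none of the 13 alternatives, as was also the case for B2m and Psmb10.

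The intervals give what these data allow for each gene. For all 10 genes the upper bound lay below a 2-fold rise, and for 8 it lay below 1.5-fold, the exceptions being Tap2 and Psmb9. The lower bound was above 0 for 6 genes, those with an unadjusted p below 0.05 (23.6% of all tested genes), and below 0 for B2m, Psmb8, Psmb10 and Nlrc5. Over the 10 genes the bounds ran from -0.147 (Nlrc5) to 0.720 (Psmb9) on the log2 scale.

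**Figure D3:**
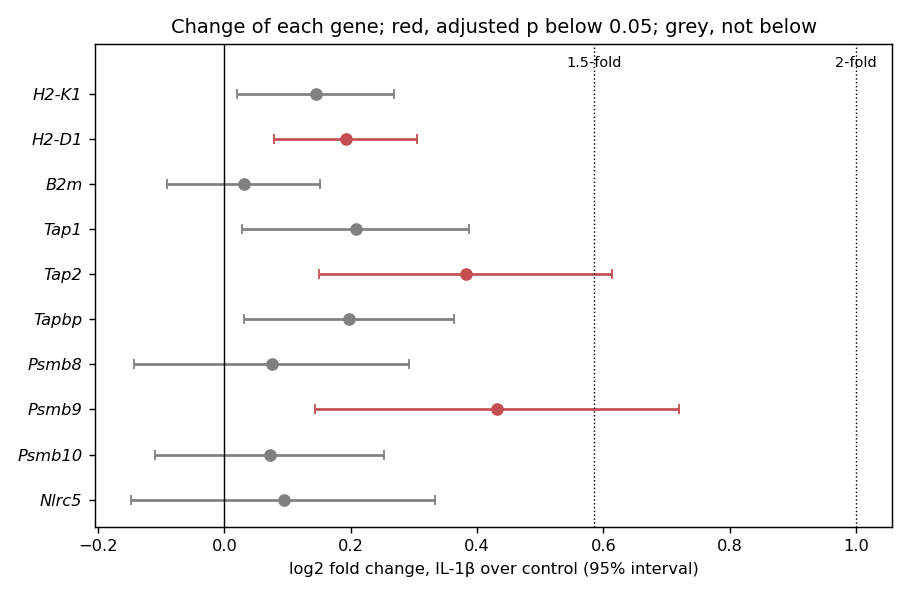
Log2 fold change of each gene with its 95% interval, from edgeR with all 6 samples; red marks an adjusted p below 0.05, and dotted lines mark 1.5-fold and 2-fold rises. No interval reaches the 2-fold line, and those of B2m, Psmb8, Psmb10 and Nlrc5 include 0.

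How many of the 10 genes passed depended on single samples. With control replicate 1 left out, 6 passed (H2-K1, H2-D1, Tap1, Tap2, Tapbp and Psmb8, each higher after IL-1β), and with control replicate 2 left out 0 passed in edgeR (3 at an unadjusted p below 0.05). The count was 2 with control replicate 3 left out, and 1, 2 and 1 with IL-1β replicates 1, 2 and 3 left out. Over all tested genes the same fits called between 1131 of 11910 (without IL-1β replicate 2) and 1596 of 11889 (without control replicate 1). Without control replicate 2, 1258 of 11880 passed. The median of the 10 log2 fold changes ranged from 0.128 without control replicate 3 to 0.24 without control replicate 1. Over the 13 alternatives, H2-D1 passed in 10, Tap2 in 9, Psmb9 in 5, Tapbp in 3, H2-K1 in 2, and Tap1 and Psmb8 in 1 each.

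**Figure D4:**
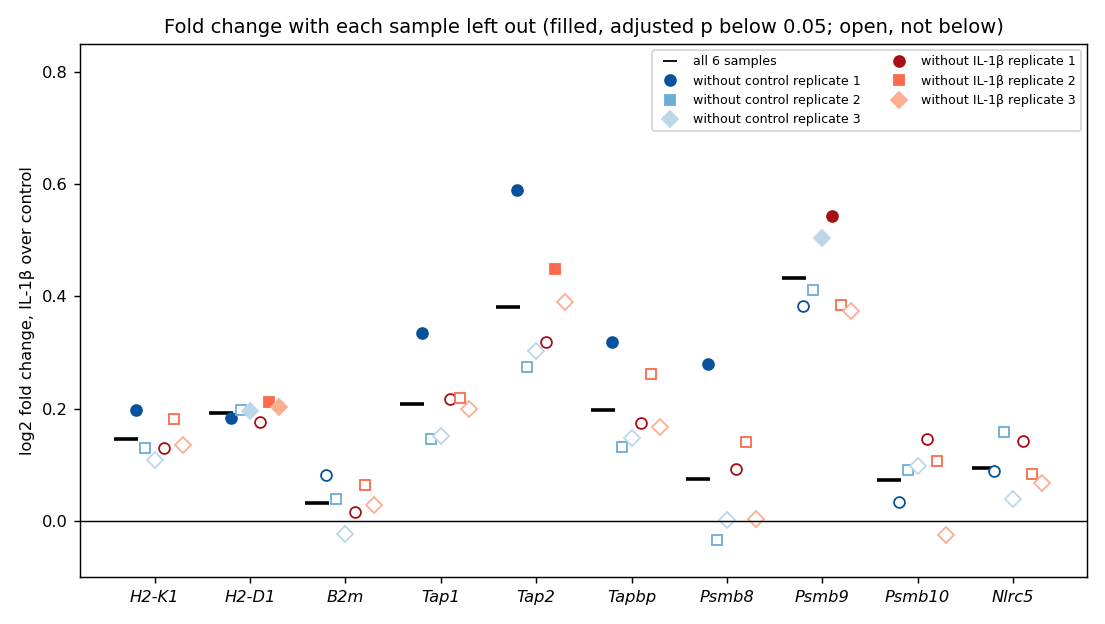
Log2 fold change of each gene with all 6 samples (black line) and with each sample left out (symbols); filled symbols have an adjusted p below 0.05 and open symbols do not. Leaving out control replicate 1 (dark blue circles) moves Tap1, Tap2, Tapbp and Psmb8 most, to 0.34, 0.59, 0.32 and 0.28.

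Non-classical class I genes, which encode heavy chains of narrower peptide choice and expression, mostly did not pass the test. Of 27 listed genes 11 had no count, 12 were tested, 1 rose and 0 fell, with a median log2 fold change of 0.012. Thus 8.33% of those tested passed, beside 13.4% of all tested genes. H2-Q9, of the Qa-2 group, was the one that rose, from 385, 354 and 341 CPM in control to 442, 434 and 463 CPM after IL-1β (log2 fold change 0.31, standard error 0.065, adjusted p = 0.00136), and without control replicate 1 it was 0.36 (adjusted p = 4.76e-05). H2-Q9 belongs to a cluster of near-identical copies and its uniqueness could not be checked with the transcripts used here, so that its reads may include those of its copies. H2-Q10, a secreted heavy chain made by the liver, was at 758, 765 and 685 CPM in control and 698, 621 and 722 CPM in IL-1β samples (log2 fold change -0.113, adjusted p = 0.334). H2-T22 was at -0.083 (adjusted p = 0.514) and shared 39.2% of its 3′ windows with H2-T10. H2-T23, the mouse Qa-1 gene, was at -0.150 (adjusted p = 0.863) and at 0.48 without control replicate 1, with 20% of its windows shared, and H2-M3, which presents formylated peptides, was at -0.012 (adjusted p = 0.993) and at 0.20 without that library. Both had under 10 CPM in every sample. H2-M2, with too few counts for the main test and named after its values were seen, had 0 counts in every control library and 6, 22 and 7 counts in the IL-1β libraries, and it was called higher by DESeq2 and in edgeR with no filter.

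Among 15 class I-like genes, 8 were tested, 1 rose and 2 fell (37.5% of those tested, beside 13.4% of all tested genes). Procr, the endothelial protein C receptor, rose from 9.1, 9.57 and 11.9 CPM to 18.9, 22.2 and 18.9 CPM (log2 fold change 0.97, adjusted p = 9.36e-05). Azgp1, a secreted glycoprotein of the class I fold, fell by 0.33 on the log2 scale (adjusted p = 0.0064), and Fcgrt, the heavy chain of the neonatal Fc receptor, which also pairs with B2m, fell by 0.66 (adjusted p = 0.00692), from 24.8, 20.3 and 24.3 CPM to 11, 14 and 18.7 CPM. The fall of Azgp1, whose highest sample was control replicate 1 (686 CPM, beside 565 and 508 CPM), shrank without that library to a log2 fold change of -0.206 (adjusted p = 0.0309). The call was lost for Azgp1 with IL-1β replicate 2 left out (-0.275, adjusted p = 0.0813) and for Fcgrt with IL-1β replicate 1 left out (-0.491, adjusted p = 0.0722). The products of these genes do not present peptides in the way H2-K1 and H2-D1 do.

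The chaperones and enzymes that work beside TAP and tapasin had a median log2 fold change of 0.057 over 12 tested genes, of which 3 rose and 0 fell. This is 25% of those tested, beside 13.4% of all tested genes. Calr, which encodes calreticulin, a part of the loading complex, rose from 669, 681 and 592 CPM to 826, 809 and 825 CPM (log2 fold change 0.34, adjusted p = 0.000367). Pdia3, the disulfide isomerase ERp57 that is bound to tapasin, rose by 0.27 (adjusted p = 0.0133), and Uggt1, the glucosyltransferase that tests glycoprotein folding, rose by 0.23 (adjusted p = 0.0379). Calr passed with each sample left out, Pdia3 lost the call with control replicate 3 (0.20, adjusted p = 0.0972), IL-1β replicate 1 (0.24, 0.0866) or IL-1β replicate 3 (0.24, 0.088) left out, and Uggt1 lost it with any sample but control replicate 1 left out (0.207 to 0.252, adjusted p of 0.063 to 0.132) and under 3 other settings (adjusted p of 0.050 to 0.143). Canx, the membrane-bound chaperone calnexin, was at 0.067 (adjusted p = 0.618), Erap1, the aminopeptidase that trims peptides in the endoplasmic reticulum, at -0.031 (adjusted p = 0.906), and Tapbpl, the tapasin-related editor, at 0.24 (adjusted p = 0.182).

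Upstream of the transporter, most proteasome genes did not pass the test. Those that passed were 7.14% of the constitutive 20S core, 5% of the 19S particle and 10% of activator and assembly genes, beside 13.4% of all tested genes. Of the 14 constitutive genes of the 20S core, 1 rose (Psma6, an alpha ring subunit, by 0.60, adjusted p = 1.12e-06) and 0 fell, with a median of 0.063. Of the 20 genes of the 19S regulatory particle, 1 rose (Psmd10, the assembly chaperone gankyrin, by 0.56, adjusted p = 6.53e-06) and 0 fell, with a median of -0.020. Of 10 activator and assembly genes, 1 rose and 0 fell, with a median of 0.066. The riser was Psme2, which encodes PA28β, from 81.7, 75.8 and 72.8 CPM to 117, 113 and 129 CPM (log2 fold change 0.64, standard error 0.082, adjusted p = 2.14e-06), beside at most 0.43 among the 10 genes. Its partner Psme1, which encodes PA28α, was at 284, 223 and 211 CPM in control and 274, 240 and 275 CPM in IL-1β samples (log2 fold change 0.135, adjusted p = 0.392). As for Tap1 and Tapbp, control replicate 1 was the high control, and without it Psme1 was at 0.28 (adjusted p = 0.00551). With any other single sample left out, Psme1 did not pass (0.049 to 0.200, adjusted p of 0.267 to 0.825). Of 8 cytosolic peptidases, 0 passed edgeR's test (2 at an unadjusted p below 0.05, and 0 with DESeq2).

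The transcription factors and receptors through which class I genes are known to be regulated had a median log2 fold change of 0.057 over 27 tested genes, of which 5 rose and 2 fell. Together these are 25.9% of those tested, beside 13.4% of all tested genes. The interferon receptor chains Ifnar2 and Ifngr2 rose by 0.83 (adjusted p = 3.8e-09) and 0.53 (adjusted p = 0.00141), and Stat3, the mediator of IL-6 type signals, rose by 0.37 (adjusted p = 0.000472). Nfyb, a subunit of the factor that binds CCAAT, fell by 0.40 (adjusted p = 0.00125). The remaining 3 that passed, named here after their values were seen, were Socs1, an inhibitor of JAK kinases, which rose by 1.95 at 6.43 CPM or less (adjusted p = 0.0074, but 0.111 without IL-1β replicate 2, and a change of 2.82 without control replicate 1), Nfkb1, the p50 subunit of NF-κB, which rose by 0.55 (adjusted p = 0.0288) and passed with no single sample left out but control replicate 1 (then 0.88, adjusted p = 4.94e-06, and otherwise 0.343 to 0.607, adjusted p of 0.0562 to 0.204), and Irf7, which fell by 0.29 (adjusted p = 0.00311). Among the factors tied to interferon induction of class I genes that did not pass were Irf1 at -0.085 (adjusted p = 0.648), Irf2 at -0.002 (adjusted p = 0.994) and Rfx5, part of the complex that NLRC5 works with, at -0.044 (adjusted p = 0.933). Irf1 was at 63.8, 68.4 and 67.6 CPM in control and 67.3, 64.7 and 56.6 CPM in IL-1β samples.

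Of 10 interferon genes, 8 had no count in any library, Ifng and Ifnb1 among them, and 0 had enough counts to be tested. Zero counts allow up to 0.268 to 0.32 CPM in a library, by counting error alone. Among 26 tested interferon-stimulated genes, 3 rose and 1 fell, with a median of 0.108. The share that passed, 15.4%, was near the 13.4% of all tested genes. Ifit1, which binds viral RNA, rose by 0.38 (adjusted p = 0.00231), Oasl1 by 0.32 (adjusted p = 0.011) and the chemokine Cxcl9 by 0.48 (adjusted p = 0.0126), whereas the chemokine Cxcl10 fell by 1.14 (adjusted p = 2.65e-06), from 31.7, 26 and 23.7 CPM to 11.4, 13.4 and 12 CPM. The number that passed was 8 without control replicate 1, 7 of them higher, and 2 without IL-1β replicate 3 (Ifit1 and Cxcl10). Oasl1 lost the call without control replicate 3 (0.279, adjusted p = 0.0624) or IL-1β replicate 3 (0.30, 0.0569), and Cxcl9 without control replicate 2 (0.356, 0.0955) or IL-1β replicate 3 (0.448, 0.0727).

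Class II genes, whose products show peptides from outside the cell and mark professional presenting cells, were represented by few counts, apart from the lysosomal enzymes Ctss and Ifi30. Of 13 listed genes 6 were tested, and 0 passed edgeR's test (1 at an unadjusted p below 0.05, and 0 with DESeq2), with a median log2 fold change of 0.48. Cd74, the invariant chain, was at 7.71 ± 1.29 CPM (SD, n = 3) in control and 11.4 ± 1.22 CPM (SD, n = 3) in IL-1β samples, which did not overlap (log2 fold change 0.56, adjusted p = 0.0658), and without control replicate 1 it was 0.71 (adjusted p = 0.0234). With any other single sample left out, Cd74 did not pass (0.481 to 0.620, adjusted p of 0.101 to 0.233). H2-Aa was at 0.50 (adjusted p = 0.324) and H2-Ab1 at 0.46 (adjusted p = 0.382), each under 7 CPM, and Ciita, the class II counterpart of Nlrc5, was at 0.186 CPM or less in every sample. Ctss, at 27.6 to 32.1 CPM, and Ifi30, at 56.3 to 71 CPM over all 6 samples, had log2 fold changes of -0.017 (adjusted p = 0.958) and -0.124 (adjusted p = 0.484). Dendritic cell markers, measured beside these, summed to between 2.35 and 4.03 CPM in control and between 2.78 and 3.25 CPM in IL-1β samples.

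**Figure D5:**
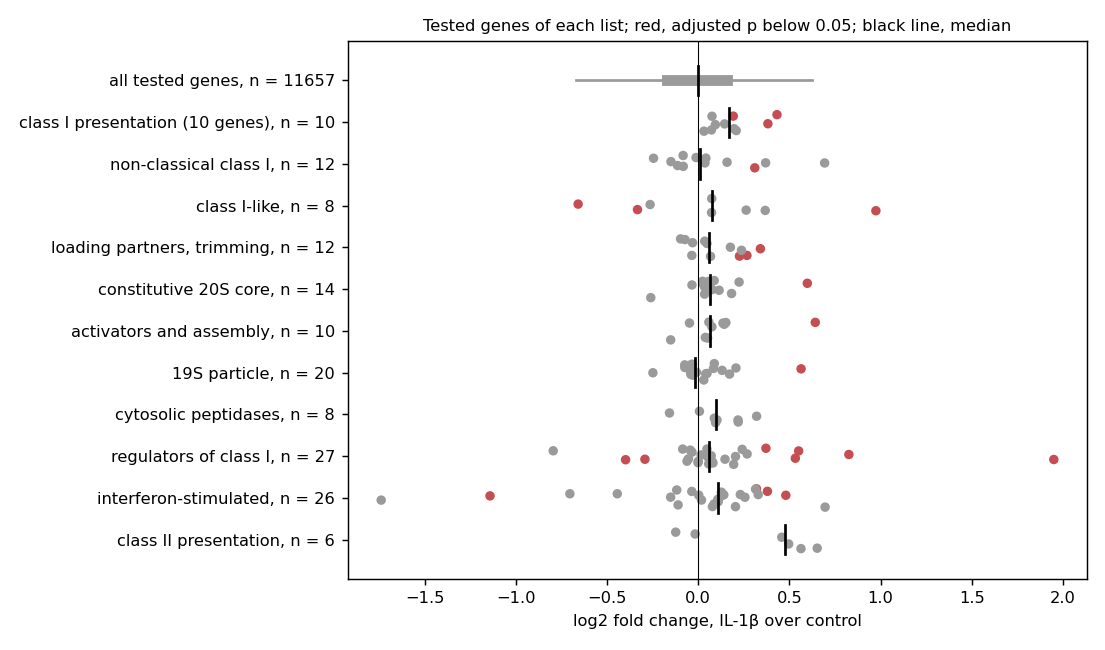
Log2 fold change (IL-1β over control) of every tested gene in each list, 1 point per gene, red where the adjusted p is below 0.05, with the median as a black line; the top row gives all 11657 tested genes as the 5th to 95th (thin bar) and 25th to 75th (thick bar) percentiles. The 10 class I presentation genes lie between 0.031 and 0.432, all to the right of 0, and the class II list has the highest median of those shown.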

How the data were processed

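RNA of 3 control and 3 IL-1β-treated hepatocyte samples was sequenced as single-end QuantSeq reads of 75 nt. Per the labels, the authors aligned reads with Bowtie2 to mm10 (GRCm38) and used edgeR with TMM. The tool that counted reads, and how it treated reads matching more than 1 gene, are not given in the sources used here. The authors deposited raw counts per gene for 23282 genes, which were analysed here. The deposited log2 normalized values, their group averages, the linear fold change (a ratio) and the unadjusted p-value, the last 2 being the authors' own comparison, were not used.

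Counts were fitted in R 4.3.3 with edgeR 4.0.16 (filterByExpr, TMM, quasi-likelihood test, group only, Benjamini-Hochberg over the 11657 genes kept, threshold 0.05). The standard error is the log2 fold change divided by the square root of F, and intervals cover 95%. CPM carry TMM scaling. The fit was tested on simulated data in which 200 genes were changed. Ratios were tested by exact two-sided permutation (Python 3.11.15, scipy 1.17.1). Alternatives were DESeq2 1.42.0, upper-quartile scaling, total counts, a minimum of 10 counts in each of the samples, no filter, limma 3.58.1 on log2(CPM + 1), the replicate number as a block and leaving out each sample.

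The 10 genes, the lists and the motifs were chosen with earlier results of these data known. Named are the 10 genes, fixed partners and regulators, and from each list at most 4 further genes with the smallest adjusted p below 0.05. 1 gene that this rule names is not reported here. Replicate libraries differed beyond counting noise (chi-square per degree of freedom 4.14 to 9.94), so none repeated the counts of another. This does not tell whether they came from separate mice. Gene positions are those of the table, and all 10 genes overlapped the GENCODE M21 gene of the same symbol and strand. Intervals of fold changes include the spread between samples, whereas the detection limit covers counting error only.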

Additional observations from a re-analysis of the deposited data

How the results depend on the processing

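Psmb9 rested on the fewest counts of the 10 genes (178 to 282 in a library) and B2m on the most. Scaling moved the median of all genes by -0.030 (upper quartile) and -0.055 (total counts). Direction was the same in all 13 alternatives for H2-K1, H2-D1, Tap1, Tap2, Tapbp, Psmb9 and Nlrc5. The count of the 10 genes that passed moved to 1 with total counts alone (Tap2), and was 2 with DESeq2, upper-quartile scaling and limma, 3 with at least 10 counts and 4 with no filter. The cause was not tested. Other list counts that moved were 2 non-classical genes with DESeq2 and with no filter (H2-M2 in addition, 1 in the report), 2 constitutive 20S genes with DESeq2 (1), 2 genes of the 19S particle with no filter, with at least 10 counts and with limma (1), and 7 interferon-stimulated genes with no filter (4).

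No pairing of samples by replicate number is stated, and none was seen in the correlations below, which cannot exclude it. Samples of the same number had correlations of 0.075, 0.0275 and -0.00498 in their deviations from group means, and control replicate 3 and IL-1β replicate 2 correlated best with each other (0.0995). With the replicate block, 1671 of all genes passed (1563 without), and 5 of the 10 genes (H2-K1 and Tapbp in addition), 2 constitutive 20S genes, 2 genes of the 19S particle, 1 cytosolic peptidase and 8 interferon-stimulated genes. H2-M3 was then at 0.000.

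With each sample left out, counts of passing genes ranged from 0 to 6 for the 10 genes, 1 to 3 for loading partners, 1 to 2 for constitutive 20S genes and for activators, 0 to 1 for cytosolic peptidases and for class II genes, and 2 to 8 for interferon-stimulated genes. The Psmb8/Psmb5 difference ranged from -0.008 to 0.141. Genes that changed sign, none of which passed on either side except Psmb8 without control replicate 1, ranged from -0.023 to 0.081 (B2m), -0.035 to 0.279 (Psmb8), -0.026 to 0.145 (Psmb10), -0.039 to 0.153 (Psmb5), -0.090 to 0.069 (Erap1), -0.509 to 0.476 (H2-T23), -0.142 to 0.202 (H2-M3), -0.019 to 0.012 (Irf2) and -0.151 to 0.099 (Rfx5). With all samples, B2m was at -0.022 and Psmb5 at -0.028 with total counts, Psmb5 at -0.004 with upper-quartile scaling, and Irf2 at 0.001 with at least 10 counts.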
